A study of Homo sapiens with 12 samples.

Results

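F-box and Kelch proteins are the substrate adaptors of cullin-RING ubiquitin ligases, and 108 protein-coding genes of these families were followed here among 58735 genes, 19951 of them protein-coding. Members were matched by symbol alone, as the numbered KLHL, KBTBD, FBXL, FBXO and FBXW genes. No expression value entered that rule, but the families were chosen with earlier results of these data known. The families held 37 KLHL, 9 KBTBD, 17 FBXL, 36 FBXO and 9 FBXW genes. RNA sequencing was carried out on HEK293T cells, derived from human embryonic kidney and carrying the SV40 large T antigen, after transient transfection. The plasmids encoded VGLL2-NCOA2, TEAD1-NCOA2 or YAP5SA, and control cells were genotype wild type and received the empty vector pcDNA3.1, with 3 libraries in each of the 4 groups. VGLL2-NCOA2 and TEAD1-NCOA2 are sarcoma fusions that join a TEAD cofactor or a TEAD factor to a nuclear receptor coactivator, and YAP5SA is a YAP mutant that the Hippo kinases cannot switch off. Values are FPKM, fragments scaled by gene length and library size, as the authors deposited them in 1 table per group.

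A cullin-RING ligase is built on a cullin scaffold, with a RING protein that brings the ubiquitin-charged enzyme at one end and an adaptor that holds the substrate at the other. F-box proteins dock through SKP1 on CUL1 and form the SCF ligases, and their second domain (leucine-rich repeats in FBXL, WD40 repeats in FBXW, others in FBXO) binds the substrate. KLHL and KBTBD proteins dock on CUL3 through a BTB domain and bind substrates through Kelch repeats. The families touch the Hippo pathway directly, because the F-box protein beta-TrCP, encoded by BTRC and FBXW11, captures phosphorylated YAP for degradation.

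The libraries had limits that touch every level below. Whole fragments could be recovered from the VGLL2-NCOA2, TEAD1-NCOA2 and control values, 14140996 to 15559838 per library, whereas only 23.2 to 25.9% of low YAP5SA values were whole and their depth is unknown. FPKM summed over all genes to 256150 to 261017 with VGLL2-NCOA2, 253219 to 303968 with TEAD1-NCOA2, 190861 to 252240 with YAP5SA and 352968 to 450095 in control, so the choice of scale moves the whole table. The transfected genes were high in their own groups, with VGLL2 at 247 to 269 FPKM with VGLL2-NCOA2 against 1.13 to 1.70 in control, TEAD1 at 49.7 to 58.1 with TEAD1-NCOA2 against 2.91 to 3.46 in control, and YAP1 at 3369 to 5779 with YAP5SA against 4.28 to 6.39 in control. A single library held signal beyond its label. YAP5SA replicate 3 had the highest YAP1 level (5779 FPKM), but also 54.4 FPKM of VGLL2 and 141 FPKM of NCOA2, where YAP5SA replicates 1 and 2 were listed at 0. That library and control replicate 3 also had the lowest correlation with their own group (mean r of 0.915 and 0.947 over the tested genes), and results that rest on them are given with and without them. Of 6 HEK293-type markers 5 or 6 reached 1 FPKM in all libraries of a group, with a summed level of 135.1 to 135.5 FPKM with VGLL2-NCOA2, 111 to 135 with TEAD1-NCOA2, 50.5 to 88.5 with YAP5SA and 290 to 363 in control. Leukocyte and endothelial markers summed to at most 2.74 and 0.379 FPKM in any library. Fibroblast markers summed to 5.57 to 6.96 FPKM with VGLL2-NCOA2, 1.41 to 1.82 with TEAD1-NCOA2, 14.1 to 16.3 with YAP5SA and 7.27 to 11.2 in control. In bulk RNA from transfected cells, fewer expressing cells and less RNA per cell cannot be told apart.

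Most adaptors were expressed in HEK293T cells. Of the 108 genes, 71 reached 1 FPKM in all 12 libraries and 80 passed the filter of 1 FPKM in at least 3 libraries and were tested. KLHL3 passed through the YAP5SA libraries alone, so it had to be high there. The tested genes were 24 KLHL, 6 KBTBD, 14 FBXL, 29 FBXO and 7 FBXW genes. Of the 28 genes left out, 21 stayed under 0.5 FPKM in every library and none was listed at 0 throughout. The highest mean levels over all libraries were those of FBXW5 (36.3 FPKM), the CpG-binding FBXL19 (27.6 FPKM), KLHL12 (21.4 FPKM), FBXO5 (19.6 FPKM) and FBXW11 (19.6 FPKM). The family medians in control cells were 4.25 FPKM for KLHL, 2.61 for KBTBD, 7.38 for FBXL, 4.76 for FBXO and 9.91 for FBXW.

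Each plasmid was first compared with the empty vector, to ask which adaptors its product moved. Calls needed an adjusted p under 0.05 (limma, Benjamini-Hochberg over 15954 genes) together with a difference over 1 in log2(FPKM + 1), a scale that understates changes of low genes. With VGLL2-NCOA2, 2 of 80 adaptors rose and 4 fell, where 6.3% of all tested genes rose and 5.03% fell. With TEAD1-NCOA2, 2 rose and 4 fell, beside 2.89% and 6.51% of all genes. With YAP5SA, 10 rose and 4 fell, beside 10.4% and 10% of all genes, so that the share of adaptors that rose, 12.5%, was close to the background. KLHL3 is among the 10, and 9 remain without it. The 3 comparisons share the control libraries.

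The differences of most adaptors were small. The median difference of the 80 genes was 0.18 with VGLL2-NCOA2, 0.13 with TEAD1-NCOA2 and 0.10 in YAP5SA cells, beside 0.01, -0.09 and 0.03 over all tested genes. Without the minimum difference, 35 adaptors were higher and 16 lower with VGLL2-NCOA2 (28.9% and 25% of all genes), 24 higher and 21 lower with TEAD1-NCOA2 (20.6% and 27.9%) and 33 higher and 19 lower with YAP5SA (32.9% and 30.2%). These counts turned on the scale. When each library was set to the same FPKM total (TPM), 26 adaptors rose and 0 fell with VGLL2-NCOA2, 15 rose and 2 fell with TEAD1-NCOA2 and 34 rose and 2 fell with YAP5SA. The whole table moved with that scale, since 27.7, 16.1 and 38.9% of all tested genes then rose, 1.28, 3.57 and 2.71% fell, and the median of all genes stood at 0.57, 0.35 and 0.77. Differences quoted on the TPM scale are therefore also given relative to that median. On recovered fragments, limma-voom gave 17 higher and 3 lower with VGLL2-NCOA2 and 10 higher and 3 lower with TEAD1-NCOA2, where 20% and 11.8% of all genes rose and 3.79% and 6.58% fell.

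**Figure D1:**
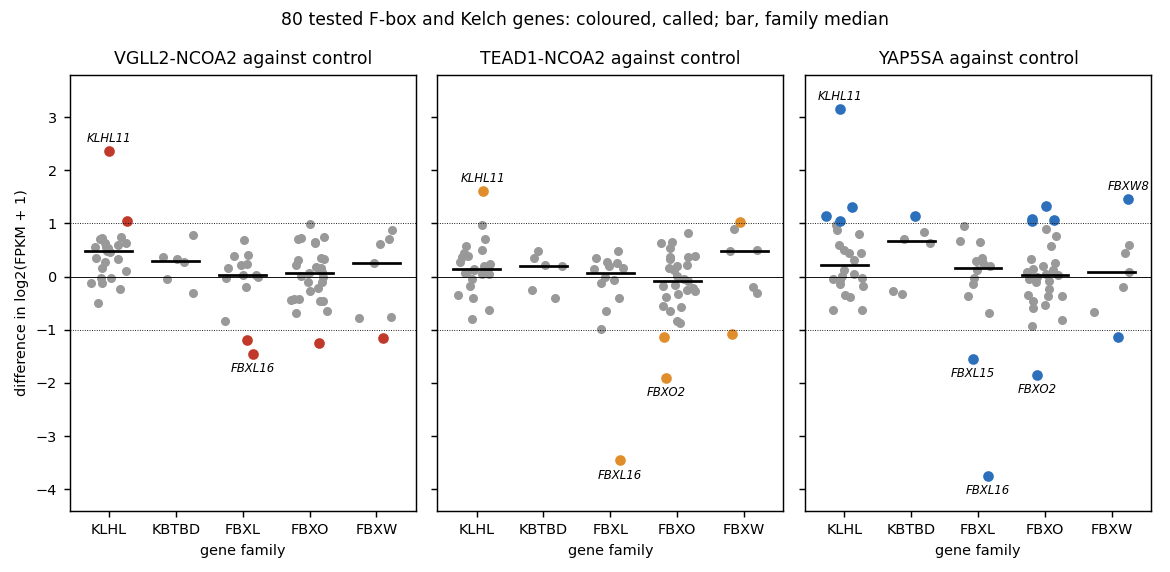
Difference in log2(FPKM + 1) of each of the 80 tested adaptors (points, spread sideways for visibility) by gene family, for each plasmid against control. Coloured points were called, black bars are family medians and dotted lines mark a difference of 1. KLHL11 is the highest point and FBXL16 the lowest in each panel on this scale, and most points lie between the dotted lines.

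Among the CUL3 adaptors, KLHL11 rose with every plasmid and had the largest increase of all adaptors in each comparison with control. KLHL11 (ENSG00000178502, chromosome 17, 41853545 to 41865431, minus strand) encodes a BTB-Kelch protein best known as a target of autoantibodies in patients with testicular tumors and encephalitis. Its level was 9.13, 8.54 and 10.3 FPKM with VGLL2-NCOA2, 5.15, 5.15 and 5.16 with TEAD1-NCOA2, and 15.1, 15.4 and 20.6 with YAP5SA, against 1.65, 0.268 and 1.41 in control. No library of a plasmid group overlapped control, and the 4 groups did not overlap one another. The log2 difference was 2.36 ± 0.23 with VGLL2-NCOA2 (adjusted p = 2.999e-05), 1.62 ± 0.23 with TEAD1-NCOA2 (adjusted p = 0.000290) and 3.15 ± 0.23 with YAP5SA (adjusted p = 2.49e-06). The control values rested on 53, 8 and 45 fragments. Every alternative kept the 3 calls, with differences of 2.03 to 3.71, 1.28 to 2.83 and 2.82 to 4.45.

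The KLHL11 promoter is shown because this gene had the strongest increase. It covers 250 bases before and 50 after the RefSeq start, chr17:41865374-41865673 on the minus strand of GRCh38.p14, and capitals mark 4 tandem copies of a 20-base GC-rich unit.
KLHL11 promoter: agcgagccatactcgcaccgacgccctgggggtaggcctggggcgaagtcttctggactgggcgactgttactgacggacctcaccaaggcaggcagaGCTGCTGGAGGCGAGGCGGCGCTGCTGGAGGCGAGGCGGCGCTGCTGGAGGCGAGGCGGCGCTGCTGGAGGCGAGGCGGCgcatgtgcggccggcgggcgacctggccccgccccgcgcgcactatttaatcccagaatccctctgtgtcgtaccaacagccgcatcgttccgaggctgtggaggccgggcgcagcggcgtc
The window held none of 3 motifs searched on both strands, the TEAD core GGAATG and its reverse complement CATTCC, the AP-1 motif TGANTCA and the CRE motif TGACGTCA. These letters stood in 14.05%, 7.76% and 1.98% of 27305 promoters of the same length, and in 9, 5 and 3 of the 85 adaptor promoters that could be matched.

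Of the other CUL3 adaptors that rose, KLHL9 passed the threshold with VGLL2-NCOA2 alone, and KLHL15, KBTBD8 and KLHL28 with YAP5SA alone. KLHL3 is set apart from these, because the filter let it in through the YAP5SA libraries alone. KLHL9, which with KLHL13 brings Aurora B to CUL3 in mitosis, was 21.5, 22.3 and 23.9 FPKM with VGLL2-NCOA2, 22.7, 19.4 and 22.2 with TEAD1-NCOA2 and 21.4, 17.1 and 18.0 with YAP5SA, against 12.1, 8.87 and 10.4 in control. All 9 plasmid libraries were above all 3 control libraries, but the difference passed the threshold with VGLL2-NCOA2 alone (1.05 ± 0.12, adjusted p = 5.89e-05) and stood at 0.97 with TEAD1-NCOA2 and 0.79 with YAP5SA. Between plasmids no KLHL9 difference passed the test (0.08 to 0.26, adjusted p = 0.127 to 0.704). Without control replicate 2 the VGLL2-NCOA2 call was lost at 0.95, and after a correction for gene length and GC content at 0.82.

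KLHL15, the CUL3 adaptor of a PP2A regulatory subunit, was 21.4, 19.8 and 21.3 FPKM with YAP5SA, against 8.95, 6.62 and 8.11 in control. It lay in between at 12.7, 12.6 and 12.9 with VGLL2-NCOA2 and 13.1, 11.2 and 12.1 with TEAD1-NCOA2. The YAP5SA libraries stood clear of the rest, with a difference from control of 1.30 ± 0.10 (adjusted p = 2.68e-06), and its call held in every alternative.

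KLHL3, which targets the WNK kinases of renal salt transport, was 1.88, 1.49 and 1.71 FPKM with YAP5SA, 0.826, 0.751 and 0.813 with VGLL2-NCOA2 and 0.658, 0.547 and 0.567 with TEAD1-NCOA2, against 0.194, 0.249 and 0.239 in control. The 4 groups did not overlap, and YAP5SA was the only one over 1 FPKM. Because the filter let it in through the YAP5SA libraries alone, these levels are a description and no test of them is given. KBTBD8, the neural crest adaptor of the ribosome factors TCOF1 and NOLC1, averaged 5.19 ± 1.36 FPKM with YAP5SA and 1.79 ± 0.210 in control (SD, n = 3 each), a difference of 1.13 ± 0.14 that depended on YAP5SA replicate 3, since without it the value was 0.96 and no longer called. KLHL28 averaged 3.99 ± 0.190 FPKM with YAP5SA and 1.41 ± 0.0924 in control (1.05 ± 0.08, adjusted p = 3.35e-06), and its call was lost after quantile normalization (0.89) and the length and GC correction (0.62). KLHL28 overlaps TOGARAM1 on the opposite strand, and with the strand setting of the counting not given, reads of such pairs cannot be assigned.

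**Figure D2:**
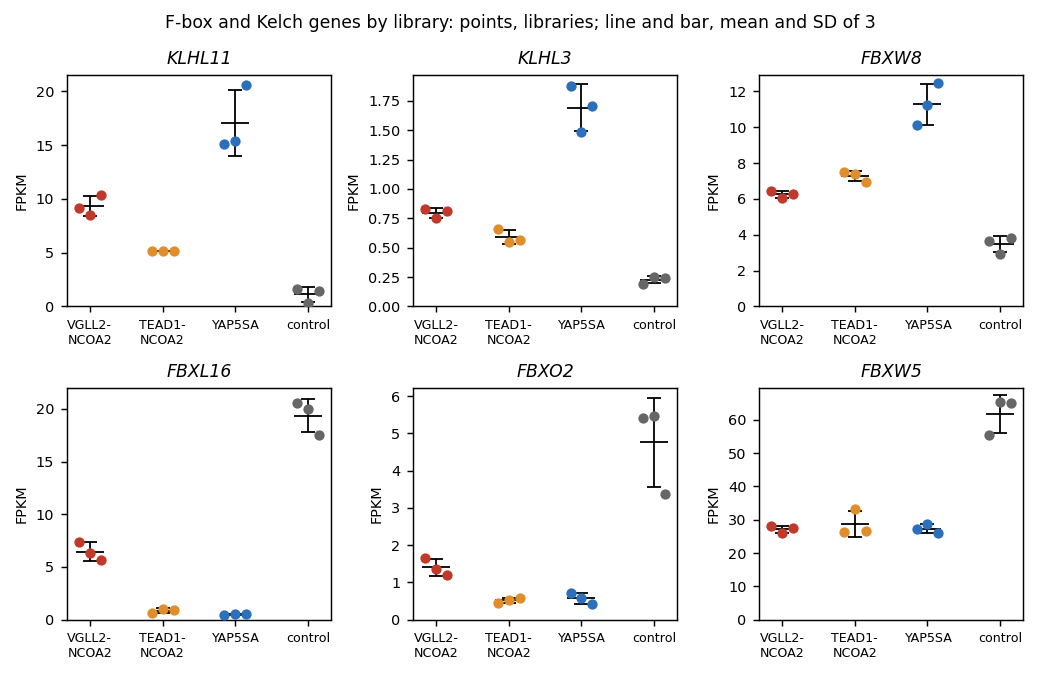
FPKM of 6 adaptors in each library (points), with the mean and SD of 3 libraries (line and bar). Groups from left to right are VGLL2-NCOA2, TEAD1-NCOA2, YAP5SA and control. KLHL3 passed the filter through the YAP5SA libraries alone, so it had to be high there. KLHL11, KLHL3 and FBXW8 are highest with YAP5SA and lowest in control, whereas FBXL16, FBXO2 and FBXW5 are highest in control.

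Among the SCF adaptors with leucine-rich repeats, FBXL16 fell with every plasmid. Its decrease was the largest of all adaptors with TEAD1-NCOA2 and YAP5SA, while with VGLL2-NCOA2 its order against FBXO2 turned on the scale (-1.46 for FBXL16 and -1.24 for FBXO2 in log2(FPKM + 1), but -1.31 and -1.46 by limma-voom). FBXL16 (ENSG00000127585, chromosome 16, 692498 to 705829, minus strand) is an F-box gene expressed mainly in brain, and it ranked 6 of 108 in control cells. Its level was 7.40, 6.29 and 5.63 FPKM with VGLL2-NCOA2, 0.593, 1.02 and 0.962 with TEAD1-NCOA2, and 0.432, 0.581 and 0.519 with YAP5SA, against 20.6, 19.96 and 17.6 in control. Control was the highest group, VGLL2-NCOA2 was intermediate, and the TEAD1-NCOA2 and YAP5SA libraries lay close together, with a difference between them of 0.29 (adjusted p = 0.0685). The difference was -1.46 ± 0.12 with VGLL2-NCOA2 (adjusted p = 1.18e-05), -3.46 ± 0.12 with TEAD1-NCOA2 (adjusted p = 5.76e-08) and -3.75 ± 0.12 with YAP5SA (adjusted p = 1.67e-08). The counts behind the values were 364 to 461 fragments for VGLL2-NCOA2 and 37 to 64 for TEAD1-NCOA2, against 939 to 1105 for control. The TEAD1-NCOA2 and YAP5SA calls held in every alternative, whereas the VGLL2-NCOA2 difference was -0.95 on the TPM scale (-1.52 relative to the median of all genes) and -0.83 after the length and GC correction, under the threshold.

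FBXL15, the F-box protein that marks the ubiquitin ligase SMURF1 for degradation, was 7.82, 6.56 and 6.55 FPKM with VGLL2-NCOA2, 8.33, 7.90 and 8.37 with TEAD1-NCOA2 and 8.20, 7.50 and 2.07 with YAP5SA, against 16.7, 18.2 and 16.6 in control. Control was above all 9 plasmid libraries, and YAP5SA replicate 3 was far below its group. FBXL15 fell with VGLL2-NCOA2 (-1.19 ± 0.32, adjusted p = 0.0101) and with YAP5SA (-1.54 ± 0.32, adjusted p = 0.00177, or -1.04 without that library), and stood at -0.98 with TEAD1-NCOA2 (adjusted p = 0.0282). FBXL15 overlaps PSD on the opposite strand, and the length and GC correction took both calls away (-0.62 and -0.99), as did the TPM scale (-0.67 and -0.92, or -1.24 and -1.69 relative to the median of all genes).

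FBXL5, the iron sensor that controls IRP2, stayed between 10.2 and 12.5 FPKM in all libraries. FBXL4, a mitochondrial F-box protein, passed the p threshold alone with VGLL2-NCOA2 (0.41, adjusted p = 0.0201) and YAP5SA (0.65, adjusted p = 0.00122) and not with TEAD1-NCOA2 (-0.06). FBXL19 averaged 19.6 ± 1.68 FPKM with VGLL2-NCOA2, 22.6 ± 3.0014 with TEAD1-NCOA2 and 32.5 ± 4.45 in YAP5SA cells, against 35.8 ± 1.74 in control (SD, n = 3 each). It was lower by p alone with VGLL2-NCOA2 (-0.84, adjusted p = 0.000211) and TEAD1-NCOA2 (-0.64, adjusted p = 0.00129), and stood at -0.14 with YAP5SA (adjusted p = 0.314).

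Of the FBXW genes, FBXW5 fell and FBXW8 and FBXW7 rose. FBXW5, which limits centriole duplication through SASS6 and was the most abundant adaptor, was 28.1, 26.0 and 27.4 FPKM with VGLL2-NCOA2, 26.2, 33.2 and 26.6 with TEAD1-NCOA2 and 27.2, 28.7 and 26.2 with YAP5SA, against 55.3, 65.2 and 64.9 in control. The plasmid groups overlapped one another and lay well under control. The difference was -1.15, -1.09 and -1.14 for VGLL2-NCOA2, TEAD1-NCOA2 and YAP5SA (SE 0.10, adjusted p = 1.93e-05, 2.63e-05 and 7.78e-06). Its transcripts have a GC content of 66.5%, and the difference shrank to -0.46, -0.39 and -0.47 after the length and GC correction and to -0.72, -0.67 and -0.59 after quantile normalization, in each case under the threshold. On the TPM scale it was -0.57, -0.59 and -0.36, also under the threshold, but relative to the median of all genes it was -1.14, -0.94 and -1.13 there. Limma-voom gave -0.90 and -0.85 for the fusions.

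FBXW8, the partner of CUL7, was 10.1, 11.2 and 12.5 FPKM with YAP5SA, 6.45, 6.05 and 6.25 with VGLL2-NCOA2 and 7.50, 7.39 and 6.94 with TEAD1-NCOA2, against 3.67, 2.95 and 3.79 in control. The groups did not overlap, with YAP5SA on top. The difference with YAP5SA was 1.46 ± 0.09 (adjusted p = 1.15e-06) and was called in every alternative, and that with the fusions was 0.70 and 0.89.

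FBXW7, the tumor suppressor that degrades cyclin E, MYC, JUN and NOTCH, was 5.198, 4.65 and 5.01 FPKM with TEAD1-NCOA2, 4.17, 4.38 and 4.41 with VGLL2-NCOA2 and 2.72, 2.77 and 3.42 with YAP5SA, against 1.75, 1.64 and 2.40 in control. Every plasmid library was above control and both fusions were above YAP5SA. The difference was called with TEAD1-NCOA2 (1.03 ± 0.11, adjusted p = 3.81e-05), at the edge of the threshold, and was lost without TEAD1-NCOA2 replicate 1 (adjusted p = 0.000363, difference just under 1), control replicate 1 (0.99) or control replicate 2 (0.96), and after the length and GC correction (0.55). FBXW11, one of the beta-TrCP genes that act on YAP, averaged 19.99 ± 1.49 FPKM with VGLL2-NCOA2, 23.9 ± 1.04 with TEAD1-NCOA2 and 17.7 ± 1.82 in YAP5SA cells, against 16.7 ± 2.65 in control (SD, n = 3 each), and passed the p threshold alone with TEAD1-NCOA2 (0.51, adjusted p = 0.00440). BTRC, the other beta-TrCP gene, lies outside the naming rule and was added after its values were seen. It stood at 0.47, 0.61 and 0.44 above control with VGLL2-NCOA2, TEAD1-NCOA2 and YAP5SA, under the minimum difference.

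The FBXO genes that rose did so with YAP5SA. FBXO30, a ligase adaptor known from muscle atrophy, was 8.04, 7.79 and 8.09 FPKM with YAP5SA, 4.47, 5.22 and 4.75 with VGLL2-NCOA2 and 5.76, 4.76 and 5.42 with TEAD1-NCOA2, against 2.77, 2.003 and 2.99 in control. YAP5SA was the highest group and control the lowest, with a difference of 1.33 ± 0.11 (adjusted p = 3.96e-06) that was 0.86 and no longer called after the length and GC correction. FBXO41, a neuronal F-box gene, was 7.56, 7.37 and 6.89 FPKM with YAP5SA, 5.26, 5.15 and 4.94 with VGLL2-NCOA2 and 2.04, 2.17 and 1.77 with TEAD1-NCOA2, against 3.40, 2.94 and 2.46 in control. In log2(FPKM + 1) the fusions lay on opposite sides of control, with 0.64 for VGLL2-NCOA2 and -0.39 for TEAD1-NCOA2. YAP5SA was called at 1.08 ± 0.09 (adjusted p = 5.67e-06, or 0.99 without control replicate 3). On the TPM scale FBXO41 differed by 1.99 for YAP5SA against control and by -2.02 for TEAD1-NCOA2 against YAP5SA. TEAD1-NCOA2 thus lay about level with control there, and its side depended on the scale.

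FBXO11, which degrades BCL6, averaged 6.70 ± 0.826 FPKM with YAP5SA, 6.33 ± 0.165 for VGLL2-NCOA2 and 4.80 ± 0.157 for TEAD1-NCOA2, against 2.69 ± 0.105 in control (SD, n = 3 each). Its difference was 1.06 ± 0.08 with YAP5SA and just short of the threshold at 0.99 with VGLL2-NCOA2, and these groups overlapped. FBXO38 averaged 4.90 ± 0.850 FPKM with YAP5SA and 1.83 ± 0.124 in control (1.05 ± 0.11). Without YAP5SA replicate 3, FBXO11 fell to 0.97 and FBXO38 to 0.94, so that with KBTBD8 counted 3 of the 10 YAP5SA increases were lost, while 7 increases and 4 decreases were called. The length and GC correction also took both calls away (0.71 and 0.59), as did quantile normalization, which put FBXO11 just under 1 and FBXO38 at 0.93. Reads of FBXO11 cannot be told apart from those of MSH6 where the genes overlap.

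Promoters could be matched for 9 of the 10 adaptors that rose with YAP5SA, and 3 of them held the TEAD core, or 2 of 8 with KLHL3 left out. The core stood in 14.05% of all 27305 promoters and in 9 of the 85 matched adaptor promoters, and enrichment was not tested. These windows are shown because TEAD factors carry YAP to DNA, with the core in capitals. They come from GRCh38.p14, on the minus strand, at chr6:145814986-145815045, chr2:73284665-73284724 and chr5:137736154-137736213, where the core begins 242, 219 and 97 bases before the start.
FBXO30 promoter window: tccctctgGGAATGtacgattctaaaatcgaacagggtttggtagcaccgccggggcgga
FBXO41 promoter window: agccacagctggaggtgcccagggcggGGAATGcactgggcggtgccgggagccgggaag
KLHL3 promoter window: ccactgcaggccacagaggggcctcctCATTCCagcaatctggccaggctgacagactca
A match describes the letters alone, and binding was not measured in these files.

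The F-box genes of the glycoprotein-binding list include some whose products recognise sugar chains of misfolded proteins. This list was chosen with earlier results of these data known. All 5 members were lower by p alone with TEAD1-NCOA2, beside 27.9% of all genes. FBXO6 is among them at adjusted p = 0.0300 (limma), a value that leaned on control replicate 3. Its adjusted p was 0.0633 on the TPM scale, 0.0690 by limma-voom and 0.170 after the length and GC correction, so not all 5 passed there. With VGLL2-NCOA2 and with YAP5SA 3 of 5 were so, beside 25% and 30.2% of all genes. None of the 5 was higher at that threshold in any of the 3 comparisons. Their median difference was -0.46 with VGLL2-NCOA2, -0.88 with TEAD1-NCOA2 and -0.82 in YAP5SA cells, beside 0.01, -0.09 and 0.03 over all genes. Relative to the median of all genes these are -0.47, -0.79 and -0.84, and on the TPM scale -0.54, -0.94 and -0.97. After the length and GC correction they were 0.0043, -0.33 and -0.33, so the VGLL2-NCOA2 direction was lost there.

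FBXO2, the neuronal glycoprotein adaptor (chromosome 1, 11637018 to 11655785, minus strand), carried the largest difference. It was 1.65, 1.37 and 1.19 FPKM with VGLL2-NCOA2, 0.449, 0.521 and 0.579 with TEAD1-NCOA2 and 0.729, 0.569 and 0.429 with YAP5SA, against 5.42, 5.47 and 3.38 in control. Control was above every other library, and VGLL2-NCOA2 was above the overlapping TEAD1-NCOA2 and YAP5SA libraries. FBXO2 fell by 1.24, 1.90 and 1.85 on the log2 scale (SE 0.15, adjusted p = 9.79e-05, 9.71e-06 and 4.49e-06), and the TEAD1-NCOA2 and YAP5SA calls held in every alternative, while VGLL2-NCOA2 stood at -0.64 after the length and GC correction and just short of -1 on the TPM scale (-1.57 relative to the median of all genes).

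FBXO44 (chromosome 1, 11654375 to 11663327, plus strand) starts inside FBXO2 on the other strand, and the genes share 1411 bases. It was 16.9, 16.3 and 15.4 FPKM with VGLL2-NCOA2, 8.94, 7.55 and 7.91 with TEAD1-NCOA2 and 9.47, 7.56 and 5.98 with YAP5SA, against 13.9, 14.1 and 18.2 in control. VGLL2-NCOA2 overlapped control, with a difference of 0.08 (adjusted p = 0.673), whereas TEAD1-NCOA2 and YAP5SA lay below both at -0.84 and -0.93, short of the minimum difference. With VGLL2-NCOA2, FBXO2 thus fell while FBXO44 stayed within the control range. With TEAD1-NCOA2 and YAP5SA, FBXO2 was called and FBXO44 was lower by p alone.

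The FBXO44 promoter is shown because it reaches into that of FBXO2. It spans chr1:11654157-11654456 on the plus strand of GRCh38.p14, and capitals mark the 77 bases that also belong to the FBXO2 promoter window.
FBXO44 promoter: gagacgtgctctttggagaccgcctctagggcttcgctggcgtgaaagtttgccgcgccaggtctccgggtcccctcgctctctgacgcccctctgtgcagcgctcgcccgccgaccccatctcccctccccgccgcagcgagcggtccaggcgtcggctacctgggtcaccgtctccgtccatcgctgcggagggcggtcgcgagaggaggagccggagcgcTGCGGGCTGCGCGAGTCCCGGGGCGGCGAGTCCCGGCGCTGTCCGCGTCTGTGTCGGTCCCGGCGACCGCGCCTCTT
FBXO6 begins 796 bases beyond FBXO44 on the same strand. It was 0.494, 0.562 and 0.364 FPKM with TEAD1-NCOA2, against 1.07, 1.23 and 6.22 in control, so control replicate 3 stood far above the rest. The difference of -1.13 ± 0.38 (adjusted p = 0.0300) became -0.55 without control replicate 3 and the call was lost, as it was in 11 of 16 alternatives. FBXO17 and FBXO27, both on chromosome 19, were not called, with FBXO27 at 3.21 ± 0.493 FPKM with VGLL2-NCOA2, 2.15 ± 0.441 with TEAD1-NCOA2 and 2.27 ± 0.229 in YAP5SA cells, against 4.76 ± 0.255 in control (SD, n = 3 each).

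**Figure D3:**
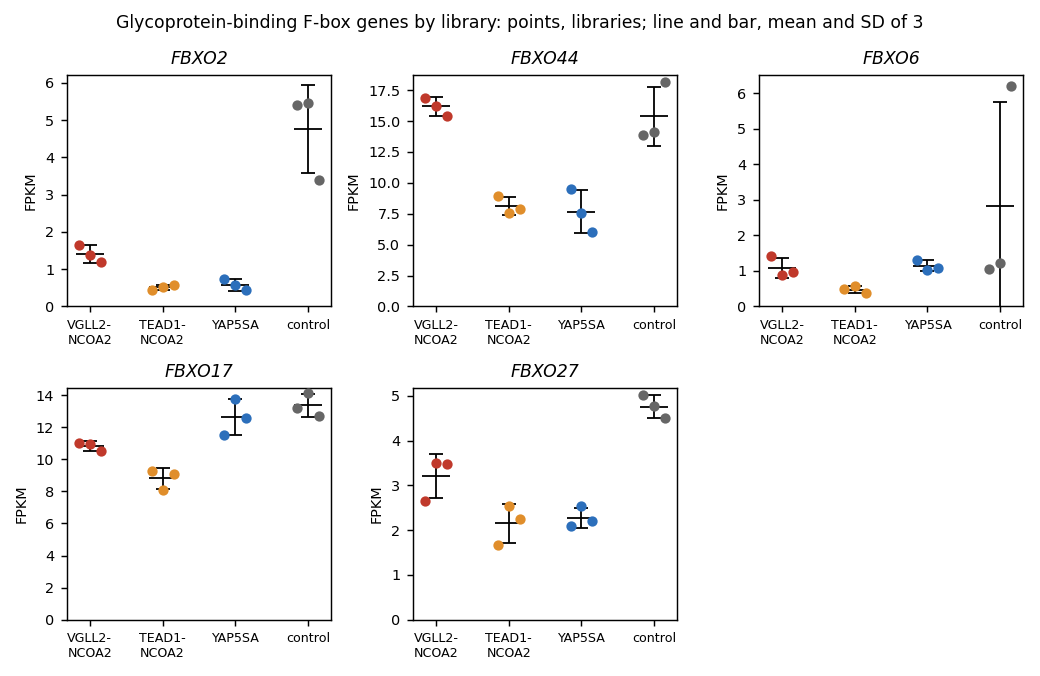
FPKM of the 5 F-box genes of the glycoprotein-binding list in each library (points), with the mean and SD of 3 libraries (line and bar). Groups from left to right are VGLL2-NCOA2, TEAD1-NCOA2, YAP5SA and control. FBXO2 is lowest with TEAD1-NCOA2 and YAP5SA, FBXO44 with VGLL2-NCOA2 lies within the control range, and the FBXO6 control mean rests on 1 library at 6.22 FPKM.

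Adaptors of the cell cycle did not move together. Of 11 tested, 1 rose with VGLL2-NCOA2 (KLHL9), 1 with TEAD1-NCOA2 (FBXW7) and 0 with YAP5SA, and none fell. Of all genes 6.3, 2.89 and 10.4% rose and 5.03, 6.51 and 10% fell, so counts this small do not set the list apart. FBXO5, the mitotic inhibitor EMI1, averaged 23.3 ± 1.07 FPKM with VGLL2-NCOA2, 16.9 ± 0.824 with TEAD1-NCOA2 and 16.8 ± 2.39 in YAP5SA cells, against 21.4 ± 1.01 in control (SD, n = 3 each). It passed the p threshold alone with TEAD1-NCOA2 (-0.32) and YAP5SA (-0.34). KLHL42, which targets the microtubule-severing protein katanin, stood at 0.71, 0.70 and 0.98 above control with VGLL2-NCOA2, TEAD1-NCOA2 and YAP5SA, short of the minimum difference. KLHL18, an Aurora A adaptor, stood at 0.88 with YAP5SA, while KLHL21, an Aurora B adaptor, stood at -0.64 there. KLHL13, KLHL22, FBXO4 and FBXO31 had differences between -0.45 and 0.45 in the 3 comparisons.

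Muscle adaptors were scarcely expressed. FBXO32 (atrogin-1) averaged 0.741 FPKM with VGLL2-NCOA2, 0.611 with TEAD1-NCOA2 and 1.54 in YAP5SA cells, against 1.398 in control, and KLHL41, of the sarcomere, averaged 1.37, 0.913 and 1.15 against 2.31. Neither was called against control. Both were lower by p alone with VGLL2-NCOA2 and with TEAD1-NCOA2, and 1 with YAP5SA, beside 25, 27.9 and 30.2% of all genes. KLHL41 overlaps AC093899.2 on the same strand, and reads of the shared part cannot be told apart. FBXO40, KLHL40 and KBTBD13 were listed at 0 in all VGLL2-NCOA2, TEAD1-NCOA2 and control libraries, and KLHL31 reached 0.746 FPKM with YAP5SA and 0.104 in control. Skeletal muscle markers summed to 3.28 to 3.54 FPKM with VGLL2-NCOA2, 1.197 to 1.49 with TEAD1-NCOA2 and 8.38 to 14.3 with YAP5SA, against 3.11 to 5.02 in control, and their part in these levels was not tested.

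KLHL12, which enlarges COPII vesicle coats, was among the steadiest adaptors at 18.9 to 23.5 FPKM in all libraries. KLHL2, the other WNK adaptor, was 6.05, 5.70 and 7.64 FPKM with VGLL2-NCOA2, against 4.03, 3.28 and 3.004 in control, and passed the p threshold alone there (0.75). FBXO7, an F-box protein linked to mitochondrial quality control and parkinsonism, averaged 10.8 FPKM with VGLL2-NCOA2, 14.8 with TEAD1-NCOA2 and 12.9 in YAP5SA cells, against 18.1 in control, and was lower by p alone in all 3 comparisons (-0.69, -0.27 and -0.46).

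The machinery that the adaptors dock on was described by 41 core genes of cullins, RING proteins, the NEDD8 pathway and the COP9 signalosome, the complex that removes NEDD8 from cullins. All 41 were tested, and in log2(FPKM + 1) 0 rose with any plasmid. On that scale 2 fell with VGLL2-NCOA2, 2 with TEAD1-NCOA2 and 5 in YAP5SA cells, or 4.88, 4.88 and 12.2%. Of all genes 5.03, 6.51 and 10% fell and 6.3, 2.89 and 10.4% rose, so the share of core genes that fell was close to the background. GPS1, a COP9 signalosome subunit, averaged 25.3 ± 0.322 FPKM with VGLL2-NCOA2, 28.6 ± 4.36 with TEAD1-NCOA2 and 18.8 ± 2.79 in YAP5SA cells, against 61.2 ± 7.16 in control (SD, n = 3 each), with differences of -1.24, -1.07 and -1.65. UBE2M, the NEDD8-conjugating enzyme, fell by 1.05, 1.06 and 1.23 on the log2 scale, and was at -0.95 and -0.96 with the fusions without control replicate 2, at -0.94 with TEAD1-NCOA2 without its replicate 1 and at -0.99 with YAP5SA without its replicate 3, all under the threshold. GPS1 was likewise at -0.98 with TEAD1-NCOA2 without replicate 1. COPS4 (-1.43), the ubiquitin-conjugating enzyme CDC34 (-1.19) and COPS3 (-1.03) fell with YAP5SA alone past the threshold. COPS3 was at -0.99 without YAP5SA replicate 1 and at -0.97 without control replicate 2. Quantile normalization took away the YAP5SA calls of CDC34 (-0.57), COPS3 (-0.38) and UBE2M (-0.36), as did the length and GC correction (-0.66, -0.91 and -0.81). The fusion calls of GPS1 and UBE2M were lost in those alternatives and by limma-voom. On the TPM scale no core gene fell, while the median of the 41 genes relative to that of all genes was -0.13, -0.07 and -0.37 for VGLL2-NCOA2, TEAD1-NCOA2 and YAP5SA, beside -0.13, -0.11 and -0.36 on the FPKM scale.

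Of 14 adaptors of the same classes whose symbols fall outside the numbered families, LMO7 rose with VGLL2-NCOA2 (3.73 FPKM, against 1.13 in control, 1.15). KDM2A, an F-box histone demethylase, and SPOPL, a BTB adaptor, rose with YAP5SA, by 1.18 and 1.13. None was called with TEAD1-NCOA2 and none fell. Of all genes 6.3, 2.89 and 10.4% rose and 5.03, 6.51 and 10% fell with VGLL2-NCOA2, TEAD1-NCOA2 and YAP5SA. KDM2A was at 0.92 without control and YAP5SA replicate 3, and the length and GC correction took the calls of LMO7, KDM2A and SPOPL away, as quantile normalization did for LMO7 (0.95) and SPOPL (0.98).

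The plasmids were then compared with one another, which does not involve the control libraries in the difference. Between VGLL2-NCOA2 and TEAD1-NCOA2, 2 adaptors were higher with VGLL2-NCOA2 and 0 lower, where 1.6% and 0.37% of all genes were called. They were FBXL16 (6.44 ± 0.890 FPKM with VGLL2-NCOA2 and 0.858 ± 0.232 with TEAD1-NCOA2, SD, n = 3 each, a difference of 2.003 ± 0.12, adjusted p = 1.004e-05) and FBXO41 (5.12 and 1.99 FPKM, 1.03 ± 0.09, adjusted p = 0.000104). FBXL16 was called in every alternative, and FBXO41 was at 0.98 without TEAD1-NCOA2 replicate 3 and at 0.82 at its lowest. At p alone 20 adaptors were higher and 4 lower with VGLL2-NCOA2 (15.3% and 4.61% of all genes).

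Between VGLL2-NCOA2 and YAP5SA, 2 adaptors were higher with VGLL2-NCOA2 and 0 lower, beside 2.04% and 2.06% of all genes. FBXL16 differed by 2.30 ± 0.12 (adjusted p = 8.80e-07), and FBXO44 by 1.01 ± 0.15 (adjusted p = 0.000594), which was 0.86 and no longer called without YAP5SA replicate 3. The FBXO44 call was also lost without VGLL2-NCOA2 replicate 1 (0.98). On the TPM scale 1 adaptor was higher and 4 lower, beside 2.13% and 5.87% of all genes. Between TEAD1-NCOA2 and YAP5SA, 0 adaptors were higher with TEAD1-NCOA2 and 2 lower, beside 1.72% and 4.17% of all genes. These were KLHL11 (-1.54 ± 0.23, adjusted p = 0.000584) and FBXO41 (-1.47 ± 0.09, adjusted p = 4.56e-06), and both were called in every alternative.

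The differences from control ran with the base composition of the genes. Across the 80 adaptors Spearman's rho between the difference and GC content was -0.54 with VGLL2-NCOA2, -0.60 with TEAD1-NCOA2 and -0.42 in YAP5SA cells, and across 12016 tested protein-coding genes it was -0.48, -0.50 and -0.34. For gene length rho was 0.41, 0.46 and 0.40 across the adaptors and 0.48, 0.47 and 0.44 across all. The points share their libraries, and the values are a description across genes. After the length and GC correction, 2 adaptors rose (KLHL11 and FBXL8) and 1 fell (FBXO7) with VGLL2-NCOA2, 1 rose and 2 fell with TEAD1-NCOA2, and 6 rose and 2 fell with YAP5SA. Of all genes 4.32% rose and 2.76% fell with VGLL2-NCOA2 under that correction, 1.96% and 3.94% for TEAD1-NCOA2, and 7.77% and 8.16% for YAP5SA. FBXL8, chosen after its values were seen, was also called with YAP5SA there. The KLHL11 increases remained, as did the FBXL16 and FBXO2 decreases with TEAD1-NCOA2 and YAP5SA. Between plasmids rho lay between -0.14 and 0.06 across the adaptors.

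**Figure D4:**
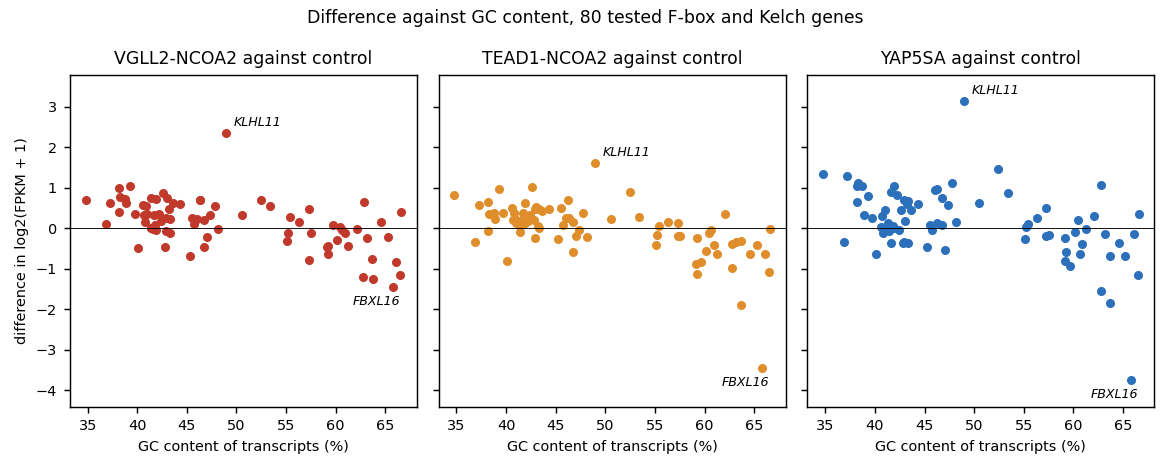
Difference in log2(FPKM + 1) against the GC content of the transcripts in percent, for the 80 tested adaptors (points) and each plasmid against control. Points drift downward with GC content (rho -0.54, -0.60 and -0.42), with KLHL11 far above and FBXL16 at the low end of the cloud.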

How the data were processed

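RNA of HEK293T cells was sequenced from 3 libraries per group. The authors deposited FPKM per gene and library in 4 tables, which may have been normalized separately. Aligner, counter and strand setting: not given in the sources used here. Mouse builds are named in the submitters' notes, but positions of all 58735 genes matched human GENCODE release 29. Whole fragments were recovered (within 0.05 fragments, up to 20 fragments) except with YAP5SA. The methods state that the 3 replicates of a condition were handled independently, but not whether each was its own transfection, so p-values measure a spread between libraries that may be technical. A gene length column in the deposited tables, of another unit, served for fragments.

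Genes with at least 1 FPKM in 3 libraries were fitted as log2(FPKM + 1) in limma 3.58.1 (R 4.3.3; lmFit, eBayes with trend) with 4 group means. P-values were 2-sided. Code was tested on simulated data. GC content came from GENCODE transcripts and promoters from RefSeq (GRCh38.p14). Errors are the SD of 3 libraries for levels and the standard error for differences. The members and lists were chosen with earlier results of these data known. Named genes were called members whose higher group averaged 1 FPKM or more, up to 10 per direction against control and 5 between plasmids, the 5 most abundant members, role lists, and up to 6 called core genes and 4 called other adaptors. Replicate numbers were not used to pair the libraries. Deviations of same-numbered libraries correlated at -0.0488 to 0.27 (18 pairs), and those of differently numbered libraries at -0.286 to 0.189 (36 pairs). Between YAP5SA and control, replicates 1, 2 and 3 correlated at 0.00859, 0.270 and 0.201. These values do not settle whether the libraries were paired. Alternatives were another pseudocount, filter, scaling, sample set or block, and limma-voom. Some genes of the lists are not reported here.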

Additional observations from a re-analysis of the deposited data

How the results depend on the processing

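Scaling was the main limit. Counts of called adaptors, against control unless stated, higher then lower, are given here where an alternative moved them, and those not given were equal to or within 1 of the main counts. With a pseudocount of 0.1, VGLL2-NCOA2 gave 7 higher, TEAD1-NCOA2 gave 6 higher and 8 lower, YAP5SA gave 15 and 6, and TEAD1-NCOA2 against YAP5SA gave 4 lower. With a minimum of 5 FPKM, TEAD1-NCOA2 gave 1 higher and 2 lower and YAP5SA gave 6 higher. On the TPM scale the counts were 26 and 0 for VGLL2-NCOA2, 15 and 2 for TEAD1-NCOA2, 34 and 2 for YAP5SA, 4 higher for VGLL2-NCOA2 against TEAD1-NCOA2, 1 and 4 for VGLL2-NCOA2 against YAP5SA, and 10 lower for TEAD1-NCOA2 against YAP5SA, while the median of all genes shifted by 0.56, 0.44, 0.74, 0.11, -0.18 and -0.29. Quantile normalization gave 2 and 3 for VGLL2-NCOA2, 3 and 3 for TEAD1-NCOA2, 7 and 3 for YAP5SA, and 1 higher for VGLL2-NCOA2 against TEAD1-NCOA2. The length and GC correction, with or without the replicate block, gave 1 lower for VGLL2-NCOA2, 1 higher and 2 lower for TEAD1-NCOA2, 6 higher and 2 lower for YAP5SA, and 1 higher for VGLL2-NCOA2 against TEAD1-NCOA2. Limma-voom gave 17 higher for VGLL2-NCOA2, 10 higher for TEAD1-NCOA2 and 4 higher for VGLL2-NCOA2 against TEAD1-NCOA2. Leaving out control replicate 3 and YAP5SA replicate 3 together gave 8 and 4 for YAP5SA and 1 higher for VGLL2-NCOA2 against YAP5SA. With no minimum difference the counts were 35 and 16, 24 and 21, 33 and 19 against control, 20 and 4 for VGLL2-NCOA2 against TEAD1-NCOA2, 17 and 21 for VGLL2-NCOA2 against YAP5SA, and 12 and 26 for TEAD1-NCOA2 against YAP5SA. The cause of these shifts was not tested.

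Leaving out 1 library gave 1 to 3 higher and 4 to 4 lower for VGLL2-NCOA2, 1 to 3 and 3 to 4 for TEAD1-NCOA2, 7 to 12 and 4 to 5 for YAP5SA, 1 to 2 higher for VGLL2-NCOA2 against TEAD1-NCOA2 and against YAP5SA, 0 to 0 lower in both, and 0 to 0 higher and 2 to 2 lower for TEAD1-NCOA2 against YAP5SA. A fit with the replicate number as a block alone left the counts at 2 and 4, 2 and 4, and 10 and 4 against control, and changed no call of a named adaptor. No called difference of a named gene changed sign under any alternative run. The low counts of KLHL11 in control and the unknown depth of YAP5SA limit the precision of their differences.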
